A study of Rattus norvegicus with 9 samples.

Results

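Lumbar dorsal root ganglia of diabetic rats were compared with those of normal rats, both given vehicle only. By their labels 6 of the study's 9 arrays belong to this comparison, 3 of normal vehicle-treated rats and 3 of STZ-injected vehicle-treated rats. Streptozotocin (STZ) is a toxin of pancreatic beta cells, the source of insulin, and the normal rats are labelled as not injected with it. All rats were of the Sprague-Dawley strain, and the labels name ganglia L4 to L6 as the tissue. Each array held equal amounts of RNA from 5 rats, and a group had 1 such pool after each of weeks 1, 2 and 3 of dosing. The remaining 3 arrays, of STZ-injected rats dosed with the immunophilin ligand FK1706, entered the fit to estimate the spread and are otherwise given only beside the main values. The STZ dose, the age and sex of the rats, the vehicle and the interval between STZ and dosing were not stated. With 1 pool per group and week, each p-value rests on how pools vary, week-to-week changes of the difference included, and carries no measure of how single rats vary.

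A dorsal root ganglion holds the cell bodies of sensory neurons, each wrapped by satellite glia, together with myelinating and non-myelinating Schwann cells, vessels, macrophages and a connective tissue of fibroblasts and collagen. Loss of insulin raises blood glucose and lowers growth hormone signalling and circulating IGF1, and sensory neuropathy is a late complication. Glucose that enters cells without insulin feeds glycolysis and the polyol pathway, in which aldose reductase turns glucose into sorbitol. Such glucose also activates the glucose-sensing factors MondoA and ChREBP, whose targets include Txnip and Arrdc4.

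The arrays had no common scale as deposited. The trimmed mean signal lay between 386 and 534 in the normal pools and between 366 and 517 in the STZ pools, and it was lower at each later week in both groups. After quantile normalization all values are log2 signals, and a difference of 1 on that scale is a doubling. The step removed a median difference of -0.10 between STZ vehicle and normal vehicle that the deposited scale held over all genes. Ratios of 3' to 5' probe sets, a sign of RNA integrity, ran from 1.04 to 1.12 for Gapdh and from 1.02 to 1.24 for actin over all arrays. Markers of sensory neurons were detected in every vehicle pool, with Calca at 12.57 to 12.66 and the nociceptor sodium channel Scn10a at 11.25 to 11.67, where the filter on dim genes stood at 7.36.

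Of 6989 genes tested, 7 passed (0.100%), 1 of them higher in the STZ pools (0.0143%), Txnip, and 6 lower (0.0858%), Col2a1, Col1a1, Igf1, Timp1, Col3a1 and Col1a2. The test was limma's moderated test with week as a block, and a gene passed at a Benjamini-Hochberg adjusted p under 0.05. At an unadjusted p under 0.05 there were 604 genes (8.64%), 276 higher and 328 lower. On the deposited scale that split was 53 higher and 957 lower. Lower in all 3 weeks were 1126 genes (16.1%) and higher in all 3 weeks 1037 (14.8%), while 894 genes (12.8%) had groups that did not overlap. The plot of all genes by level shows that the passing genes stand at different heights of the signal range, from Col2a1 among the dimmer genes to Col3a1 among the brightest.

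**Figure D1:**
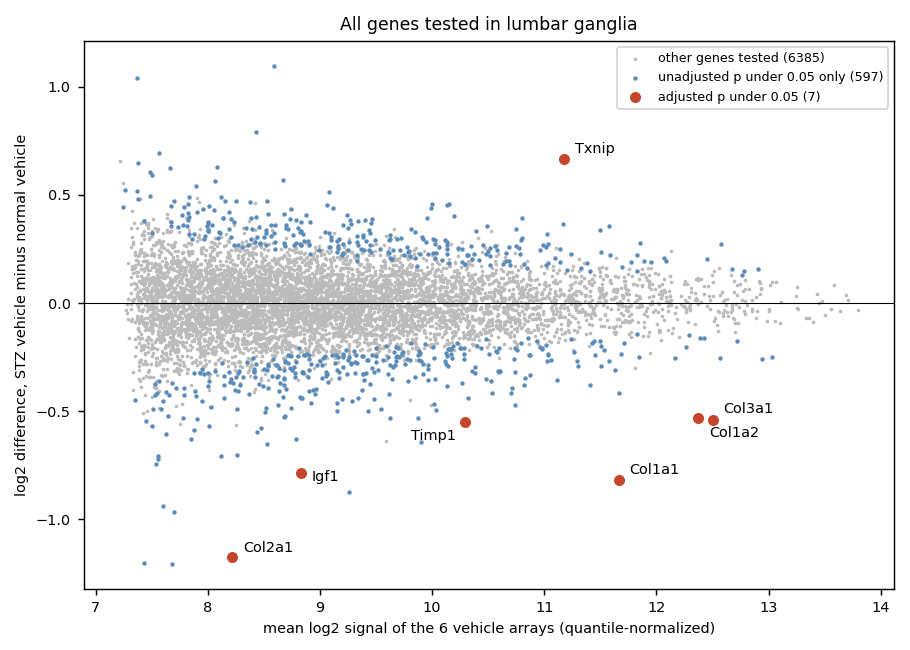
Each point is 1 of 6989 genes, with the mean log2 signal of the 6 vehicle arrays on the x axis and the fitted log2 difference, STZ vehicle minus normal vehicle, on the y axis. Red points are the 7 genes at an adjusted p under 0.05, of which only Txnip lies above 0, and blue points are genes at an unadjusted p under 0.05 only.

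Txnip, whose product binds thioredoxin and restrains glucose uptake, lies at chr2:186781933-186785736 of the rat assembly GRCr8. Its log2 signal was 10.70, 10.93 and 10.90 in the normal pools of weeks 1, 2 and 3 and 11.39, 11.53 and 11.60 in the STZ pools. Every STZ pool was above every normal pool, and the weekly differences of 0.70, 0.60 and 0.70 were close to each other. Txnip rose by 0.67 (SE 0.072, limma adjusted p = 0.0105). Igf1, a growth factor for neurons and Schwann cells at chr7:24169608-24249446, was at 9.36, 9.22 and 9.09 in the normal pools and at 8.67, 8.46 and 8.18 in the STZ pools. The groups were again apart, and Igf1 fell by 0.79 (SE 0.100, adjusted p = 0.0106). A second Igf1 probe set gave a less even picture, with weekly differences of 0.15, -0.97 and -0.85 and a fitted value of -0.56 (SE 0.192).

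The collagen genes that passed code for chains of type I, II and III fibrils. Col1a1, at chr10:80380458-80397461, was at 12.42, 11.73 and 12.07 in the normal pools and at 11.59, 10.98 and 11.19 in the STZ pools. The week 2 pools were lowest in both groups, and the groups did not overlap. Col1a1 fell by 0.82 (SE 0.095, adjusted p = 0.0105), and its second probe set gave -0.92 (SE 0.107). Col3a1, at chr9:54866646-54902578, was at 13.01, 12.53 and 12.78 against 12.56, 11.93 and 12.20. Here the week 1 STZ pool lay above the week 2 normal pool, so that the groups overlap although each week gave a lower STZ value. Col3a1 fell by 0.54 (SE 0.067, adjusted p = 0.0105). Col2a1, the fibril collagen of cartilage at chr7:130977561-131006627, was at 9.19, 8.53 and 8.69 against 8.01, 7.68 and 7.20, with no overlap. It fell by 1.18 (SE 0.144, adjusted p = 0.0105), the largest difference among the 7, but its dimmer second probe set had -0.08 (SE 0.152).

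Col1a2, which makes the partner chain of type I collagen, and Timp1, an inhibitor of matrix-degrading metalloproteinases, had the passing calls nearest to the threshold. Their promoters are shown because these genes moved with the other matrix genes and because RefSeq's GRCr8 promoter table held entries for only 3 of the 7 passing genes, Col1a2, Timp1 and Igf1. The stretch of Col1a2 is chr4:33518307-33518406 on the plus strand, 250 to 151 bases before the start in the table, and capitals mark the complement of CCAAT. The stretch of Timp1 is chrX:3771173-3771272 on the minus strand, 150 to 51 bases before the start that the table holds. That start lies inside the span of Timp1 in the gene table, so that the stretch is not upstream of the whole gene. Its capitals mark TGAGTAA, a motif added to the search after the sequence had been seen.
Col1a2: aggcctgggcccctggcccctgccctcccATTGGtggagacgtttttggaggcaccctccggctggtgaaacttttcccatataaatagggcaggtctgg
Timp1: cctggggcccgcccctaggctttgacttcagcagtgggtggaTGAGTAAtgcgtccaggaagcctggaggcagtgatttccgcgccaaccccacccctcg
In the 250 bases before the start, on either strand, CCAAT was found in 34% of 33469 promoters, TGAGTAA in 2.38% and CACGTG, the core of the glucose-sensing element, in 5.59%. The Igf1 window held none of these 3 motifs, and a match describes letters only, not binding.

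Col1a2, at chr4:33518557-33553484, was at 12.99, 12.29 and 12.63 in the normal pools and at 12.42, 11.89 and 12.01 in the STZ pools. Every week had the lower value in the STZ pool, but the groups overlap through the week 2 normal pool. It fell by 0.53 (SE 0.082, adjusted p = 0.0476), and a second probe set had -0.43 (SE 0.117). Timp1, at chrX:3766509-3772578, was at 10.72, 10.30 and 10.69 against 10.16, 9.93 and 9.97, with no overlap. It fell by 0.55 (SE 0.083, adjusted p = 0.0418). Calls depended on single pools: in limma 0 genes passed without the normal pool of week 1 or 3 or the STZ pool of week 1 or 3 (944, 490, 488 and 426 genes at an unadjusted p under 0.05, in that order), 3 without the STZ pool of week 2 and 5 without the normal pool of week 2. In 9 limma fits that left out a pool or a week, Col1a1 passed in 4 and Txnip and Col2a1 in 3 each. Col1a2 passed in 2, Timp1 in 1, and Igf1 and Col3a1 in 0. The sign of all 7 genes was the same in every alternative that tested them. Each had weekly differences of 1 sign in all 3 weeks, so that outcome was largely set beforehand.

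**Figure D2:**
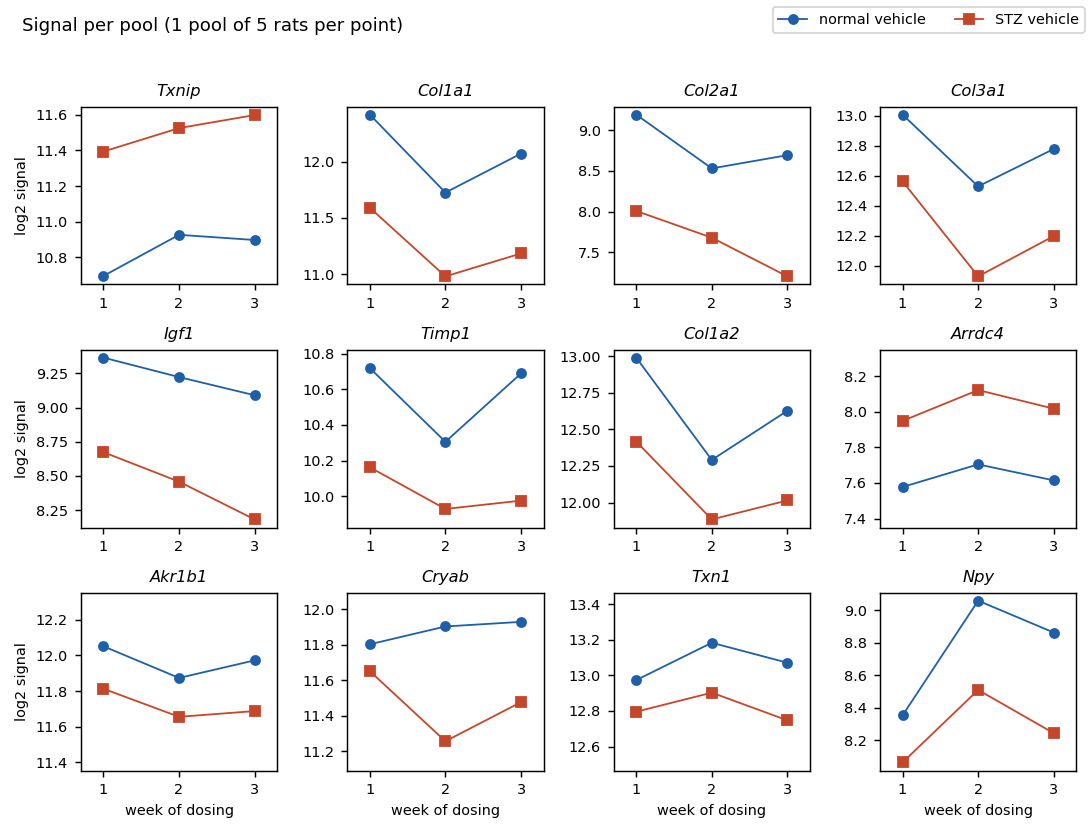
Log2 signal of 12 genes in each vehicle pool against week of dosing, with normal vehicle as circles and STZ vehicle as squares; each panel has its own y axis, and lines join pools of different rats. The first 7 panels are the genes that passed, and Arrdc4, Akr1b1, Cryab, Txn1 and Npy did not pass but were on 1 side in all weeks.

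All counts of list members below are at an unadjusted p under 0.05, 0 list members passed over all genes beside the 7, and a list's counts carry no test of their own. Over all genes tested 3.95% were higher and 4.69% lower at that threshold, and each count is to be read beside these shares. Among the tested genes of the glucose list Txnip had the largest difference. Of 15 tested genes of glucose entry, glucose sensing and the polyol pathway, 3 were higher (20%), Txnip among them, and 1 lower (6.67%). Without Txnip that was 2 higher and 1 lower of 14. The list had a median of 0.07 (-0.03 on the deposited scale) beside 0.00 over all genes tested. Arrdc4, a relative of Txnip, was at 7.58, 7.70 and 7.61 in the normal pools and at 7.95, 8.12 and 8.02 in the STZ pools. The 2 groups stood apart by 0.37, 0.42 and 0.40 in the 3 weeks, yet Arrdc4 did not pass (0.40, SE 0.122, adjusted p = 0.413). Akr1b1, the aldose reductase itself, was at 12.05, 11.87 and 11.97 against 11.81, 11.66 and 11.69, lower in every STZ pool (-0.25, SE 0.066, adjusted p = 0.318). Sord, which encodes the next enzyme of the pathway, had -0.09 with weekly values of 0.14, -0.02 and -0.38. Taldo1, of the pentose phosphate pathway, had 0.26. Glycolysis genes had 1 of 17 higher and 0 lower with unadjusted p under 0.05, the lactate and pyruvate carrier Slc16a1 (0.22), with a median of 0.06 that turned to -0.04 on the deposited scale.

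Thioredoxin itself, Txn1, was at 12.97, 13.18 and 13.07 in the normal pools and at 12.80, 12.90 and 12.75 in the STZ pools. All STZ values were the lower ones (-0.26, SE 0.060, adjusted p = 0.269). The 39 antioxidant and glutathione genes went both ways, 2 higher (5.13%) and 4 lower (10.3%), beside 3.95% and 4.69% of all genes tested. The glutathione transferases Gstm2 (0.51, SE 0.117) and Gstp1 (0.39, SE 0.116) were the higher ones. Peroxiredoxin Prdx4 (-0.27), catalase Cat (-0.21) and Nfe2l2 (-0.24), the transcription factor NRF2 that drives many of these genes, had lower values beside Txn1. Gstm2 was nearly level in the normal pools, at 8.85, 8.76 and 8.85, and at 9.09, 9.36 and 9.55 in the STZ pools. Hmox1 and Nqo1, textbook NRF2 targets, had 0.03 and 0.01.

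Among the widest differences of 1 sign in all weeks, 15 genes per direction were taken at an unadjusted p under 0.05. On the higher side only Txnip passed, and on the lower side Col2a1, Col1a1 and Igf1. All genes so chosen kept their sign in every alternative that tested them. The choice of 1 sign in all weeks largely sets that outcome, so it is no support for them.

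Matrix and cartilage genes made up several of the lower ones. Col10a1, a collagen of growth plate cartilage, was at 8.17, 8.31 and 7.72 in the normal pools and at 7.05, 7.17 and 7.16 in the STZ pools. Thbs4, a thrombospondin of tendon and nerve matrix, was at 9.73, 9.39 and 9.97 against 9.18, 8.99 and 8.30. In neither gene did the groups overlap, and the Thbs4 difference ran from -0.40 in week 2 to -1.67 in week 3. Col8a1, a short-chain collagen, had -0.70 (SE 0.150), and Acp5, the tartrate-resistant acid phosphatase of osteoclasts, had -0.71 (SE 0.141) with weekly values of -0.67, -0.71 and -0.75. Of these, Col10a1, Thbs4, Acp5 and Col8a1 passed on the deposited scale but not after quantile normalization (adjusted p = 0.159, 0.269, 0.219 and 0.232).

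Other lower genes have roles outside the matrix. Dpp4, a cell surface peptidase that cleaves incretin hormones, was at 7.99, 7.74 and 7.99 in the normal pools and at 6.83, 7.42 and 7.23 in the STZ pools, with no overlap (-0.75, SE 0.176). Aldh1a1, an enzyme that makes retinoic acid, was at 8.83, 9.11 and 9.37 against 8.66, 8.37 and 8.39 (-0.63, SE 0.150). Its normal pools were higher at each later week. Wdr24, part of a complex that regulates TORC1 at the lysosome, had -0.65, and Ttc9b had -0.71. None of these passed, with adjusted p of 0.277 for Dpp4 and Aldh1a1, 0.352 for Wdr24 and 0.316 for Ttc9b.

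Most genes on the higher side were dim and uneven over the weeks, and several on the lower side were too. Among the higher ones Fam98c, Pex11a and Zfp292 had normal means of 6.85, 7.22 and 7.05, below the filter of 7.36. The normal means of Gpr162, Spata19, Clip1 and Bmal1 were also below that filter. Among the lower ones Defa5, Col10a1, Dpp4, Acp5 and Np4 had STZ means of 6.83, 7.13, 7.16, 7.20 and 7.22. Such genes entered the test through their other pools. Defa5, Np4, Thbs4 and Ttc9b were also uneven by week. Strn, which encodes striatin, a scaffold of a phosphatase complex, was at 8.16, 8.07 and 7.89 in the normal pools and at 8.36, 9.60 and 9.45 in the STZ pools. The difference was thus 0.20 in week 1 and 1.53 and 1.56 later. Fam98c had 1.00, 2.05 and 0.07 by week, and Anp32a, a nuclear phosphoprotein, had 0.76, 1.34 and 0.28. Pex11a, which promotes the division of peroxisomes, had more even values of 0.82, 0.42 and 0.85 (fitted 0.69, SE 0.159, adjusted p = 0.269). Slc6a13, a GABA transporter, had 0.60, 0.79 and 0.50, and Ttc5, which binds nascent tubulin, 0.79, 0.38 and 0.53. Junb, a component of the AP-1 transcription factor, was at 7.65, 7.46 and 7.77 in the normal pools and at 7.86, 8.31 and 8.33 in the STZ pools, which did not overlap. Zfp292 had 0.65, the orphan receptor Gpr162 0.59, Spata19 0.52, the microtubule tip protein Clip1 0.52 and the DNA polymerase subunit Rev3l 0.49.

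**Figure D3:**
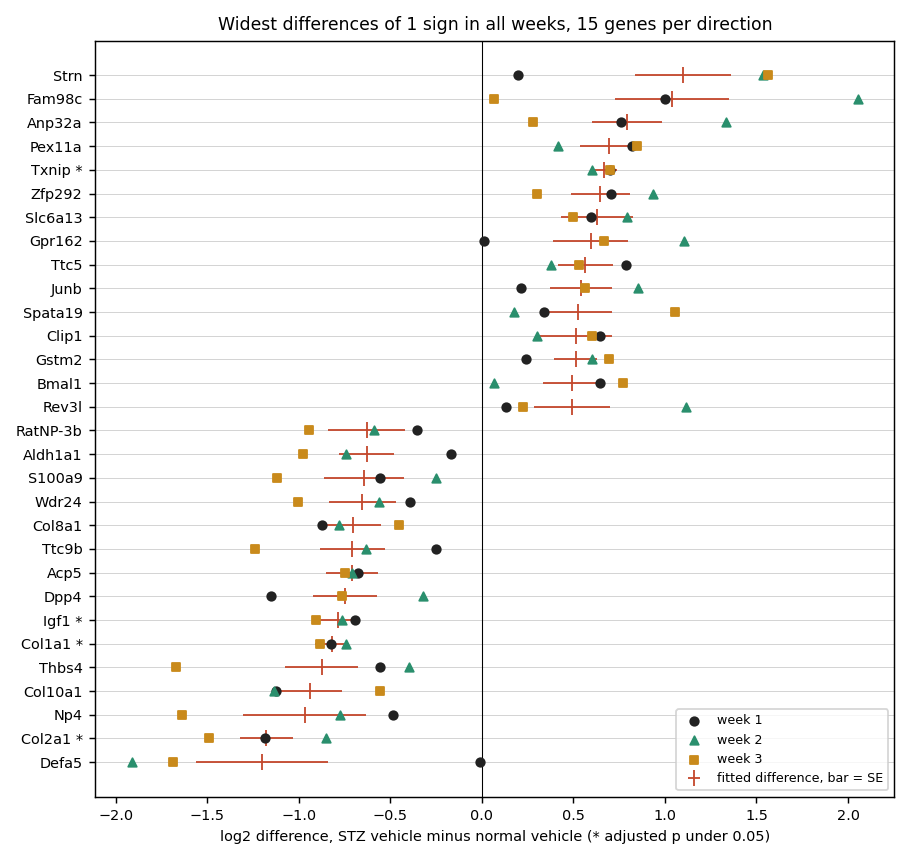
Log2 difference, STZ vehicle minus normal vehicle, of the 15 genes per direction with the widest differences of 1 sign, with a symbol for each week and a red bar for the fitted difference ± SE. Weeks lie close together for Txnip (0.60 to 0.70), Acp5 and Col1a1 and far apart for Fam98c (0.07 to 2.05), Strn and Defa5.

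Fibroblast and matrix genes were the list with the most members lower. Of 39 tested, 20 were lower, and none higher, at an unadjusted p under 0.05 (51.3% lower, beside 4.69% of all genes tested), and 4 passed. Leaving out 1 pool left 15 to 18 of the fibroblast and matrix genes lower. The median was -0.23, with -0.29, -0.24 and -0.24 in weeks 1, 2 and 3. The list was assembled with earlier results of these arrays known, so its count is not independent evidence. Of its 12 collagen chains 11 were lower, a split made after the values were seen, among them Col6a1 (-0.49, SE 0.105), Col14a1 (-0.44, SE 0.102) and Col15a1 (-0.53). The other 27 members had 9 lower and 18 that did not reach an unadjusted p of 0.05. The lower ones included the microfibril gene Mfap4 (-0.59, SE 0.125), dermatopontin Dpt (-0.53), fibronectin Fn1 (-0.33), the procollagen-processing enhancer Pcolce (-0.47) and the collagen chaperone Serpinh1 (-0.37).

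Not every abundant matrix or fibroblast gene had a lower value. Decorin, Dcn, was at 13.07, 12.99 and 13.03 in the normal pools and at 12.87, 12.93 and 13.04 in the STZ pools (-0.08, SE 0.054). Lumican, Lum, had -0.05 (SE 0.102) and the fibroblast receptor gene Pdgfra 0.07 (SE 0.111). The summed linear signal of the 43 fibroblast and matrix genes on the array was 58483 to 73306 in the normal pools and 49185 to 58564 in the STZ pools. In pooled tissue, fewer cells of a type and less RNA per cell cannot be told apart.

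Cartilage and bone transcripts are as a rule markers of tissue next to the ganglion, and their source in these pools was not tested. Most list members were dim, but Cnmd was not. Of 7 tested genes 5 were lower at an unadjusted p under 0.05 (71.4%, beside 4.69% of all genes tested), and the median was -0.53. Beside Col2a1, Col10a1 and Acp5 they were Cnmd, which encodes chondromodulin, and the osteoclast protease Ctsk. Col10a1 and Acp5 had STZ means of 7.13 and 7.20, below the filter of 7.36. Higher values in other pools, with normal means of 8.07 and 7.91, brought them into the test. The share of lower genes thus depends partly on the filter. Cnmd was at 10.02, 9.89 and 9.74 against 9.69, 9.10 and 9.28, and Ctsk at 8.87, 8.74 and 8.68 against 8.32, 8.50 and 7.95. The STZ pools lay below the normal pools in both. Hapln1 (-0.12) and Col9a2 (-0.09), also cartilage genes, showed little difference and had overlapping groups. The 18 list members on the array summed to 3716 to 4276 in the normal pools and 2138 to 2943 in the STZ pools, 11 of them below the filter on dim genes, Acan and Comp among those. The part that adhering tissue has in the matrix values was not tested.

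Schwann cell genes divided by member. Of 14 tested genes of myelinating Schwann cells 7 were lower and 0 higher at an unadjusted p under 0.05, and 0 passed in limma. The share lower was 50.0%, beside 4.69% of all genes tested. The weekly medians were -0.07, -0.23 and -0.25. Without week 2 the myelinating Schwann cell genes had 3 of 15 lower, and without the week 3 normal pool or the week 2 STZ pool 4 of 14. Cnp, a myelin enzyme gene, was at 11.31, 11.31 and 11.27 in the normal pools and at 11.21, 10.81 and 10.80 in the STZ pools. Prx, which encodes periaxin, was at 11.81, 11.75 and 11.80 against 11.73, 11.26 and 11.44. In both genes the week 1 difference was the smallest, -0.10 and -0.07. Sox10, the lineage factor, had -0.39 (SE 0.121), Pllp -0.29, Mal -0.24, Cldn19 -0.23 and Cd9 -0.20. The abundant compact myelin genes Mbp (-0.06, SE 0.051) and Pmp22 (-0.03, SE 0.045) and the factor Egr2 (-0.05, SE 0.108) had small values. Satellite glia and non-myelinating Schwann cell genes had 1 of 14 higher, the adhesion gene L1cam (0.23), and 0 lower. Gfap, which glia raise after injury, had -0.29 (SE 0.167), most of it from week 2 (-0.83).

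Cryab, a small heat shock protein abundant in Schwann cells, was at 11.80, 11.90 and 11.93 in the normal pools and at 11.65, 11.26 and 11.48 in the STZ pools. Every STZ pool was lower (-0.42, SE 0.087, adjusted p = 0.232), and it passed on the deposited scale. Among 17 heat shock genes the mitochondrial Hspe1 had -0.24 and the cytosolic Hsp90ab1 0.13. In the list of unfolded protein and amino acid stress genes 1 of 27 was higher and 1 lower, the oxidase Ero1a (0.27) and the endoplasmic reticulum gene Sdf2l1, at 9.37, 9.46 and 9.32 against 8.80, 8.82 and 9.14. Hspa5 and Ddit3, the usual readouts of that response, had -0.06 and -0.01.

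Lipid synthesis genes held small differences, some even over the weeks and some not. Of 18 fatty acid synthesis genes 6 were lower (33.3%, beside 4.69% of all genes tested) and 0 higher at an unadjusted p under 0.05. Lower in all 3 weeks were 10, as were 16.1% of all genes tested. The median was -0.13, with -0.03, -0.16 and -0.18 in weeks 1, 2 and 3. Without the normal pool of week 2 or of week 3 the fatty acid synthesis genes had 3 of 18 lower, and on the deposited scale 10. Me1, the malic enzyme that supplies NADPH, was at 10.13, 10.30 and 10.16 in the normal pools and at 9.86, 9.96 and 9.72 in the STZ pools, with no overlap (-0.35, SE 0.092, adjusted p = 0.318). Elovl1, which elongates very long chains, was at 10.53, 10.61 and 10.50 against 10.26, 10.15 and 10.26, also apart. The desaturase gene Fads1 had -0.22, the desaturase gene Scd -0.26 and Dgat2, which completes triglycerides, -0.43. By week Scd had 0.01, -0.38 and -0.40, and Dgat2 -0.46, -0.07 and -0.77. Srebf1, the insulin-regulated factor that drives the pathway, had -0.50, with weekly values of 0.01, -0.36 and -1.14. Its targets Fasn and Acaca had -0.09 and -0.04.

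Cholesterol synthesis genes did not share a direction, with 3 of 20 higher (15%, beside 3.95% of all genes tested) and 1 lower (5%, beside 4.69%). Mvd (0.37), Fdps (0.22) and Insig1 (0.19) were higher and Cyp51, the lanosterol demethylase, was lower (-0.27), with 11.44, 11.48 and 11.35 in the normal pools and 11.33, 11.16 and 10.98 in the STZ pools. Fat oxidation and ketone genes had 1 of 26 higher and 0 lower. That gene was Acadm, a mitochondrial dehydrogenase of medium-chain fatty acids, at 9.97, 9.59 and 9.70 against 10.11, 10.01 and 10.32 (0.39, SE 0.120). The fasting-induced genes Pdk4 (0.25, SE 0.153) and Angptl4 (0.33, SE 0.170) had higher means with overlapping groups, and Cpt1a had -0.13 (SE 0.093).

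Respiratory chain and ATP synthase genes had a median of -0.02. At an unadjusted p under 0.05, 9 of 71 were lower (12.7%, beside 4.69% of all genes tested) and 1 higher. The lower ones were small subunits, among them Atp5f1e (-0.27, SE 0.065), Uqcrq (-0.29, SE 0.076), Uqcr10 (-0.24) and Ndufa3 (-0.47). Atp5f1e was at 11.71, 11.68 and 11.75 in the normal pools and at 11.39, 11.49 and 11.45 in the STZ pools. By complex the lower genes were 4 of 34 in complex I, 3 of 8 in complex III, 1 of 9 in complex IV and 1 of 16 in the ATP synthase, whose subunit Atp5pb was the higher gene (0.35). The count depended on single pools and on the scale: the respiratory chain and ATP synthase genes had 4 of 71 lower without the week 2 normal pool, 5 without the week 3 STZ pool, 2 lower and 4 higher without week 2, and 22 lower on the deposited scale.

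Neuronal lists had medians near that of all genes tested. Pan-neuronal genes had 2 of 18 higher and 0 lower, Snap25 (0.16) and Map2 (0.44), and their median of 0.00 was -0.09 on the deposited scale. Nociceptor genes had 1 of 14 higher, the sodium channel gene Scn11a (0.16). Calca, the CGRP precursor, was at 12.66, 12.57 and 12.65 in the normal pools and at 12.62, 12.60 and 12.63 in the STZ pools, a difference of -0.01 (SE 0.053). Tac1, the substance P precursor, had 0.01 (SE 0.066) and the heat receptor Trpv1 0.04 (SE 0.088). Scn10a, a sodium channel of nociceptors, had -0.20 (SE 0.093).

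Of 18 tested neuropeptide genes 2 were higher, Chga (0.22) and Scg5 (0.15), and 2 lower, Npy and Cartpt, and the list median was -0.01. That was 11.1% in each direction, beside 3.95% higher and 4.69% lower over all genes tested. Npy, which large neurons make after injury, was at 8.35, 9.06 and 8.86 in the normal pools and at 8.06, 8.51 and 8.24 in the STZ pools. It was lower in the STZ pool of every week while the groups overlapped (-0.49, SE 0.111, adjusted p = 0.269). Galanin, Gal, another peptide of injured neurons, did not reach an unadjusted p of 0.05. It was at 8.16, 7.94 and 7.99 against 7.94, 7.39 and 7.09 (-0.56, SE 0.277), with an STZ maximum equal to the lowest normal value to 2 decimals. Cartpt had -0.35 (SE 0.131). Of 12 tested genes of nerve injury and regeneration 1 was higher, Smad1 (0.29), and 1 lower, Npy. Atf3 and Vip, which axotomy induces in these neurons, were below the filter.

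Potassium and HCN channel genes had 5 of 39 higher (12.8%, beside 3.95% of all genes tested) and 0 lower at an unadjusted p under 0.05, with a median of 0.06 that was -0.04 on the deposited scale. Those 5 were Kcnh3 (0.49, SE 0.119), Hcn3 (0.46, SE 0.161), Kcnh2 (0.31), the subunit Kcnab1 (0.27) and Kcna1 (0.16). All kept a positive sign on the deposited scale, where 2 of the potassium and HCN channel genes were higher. The median over all genes was -0.10 on that scale, smaller in size than these differences, so the kept sign was largely set beforehand. Without the STZ pool of week 1 the count of 5 higher became 1, and it was 3 without the normal or the STZ pool of week 3. Kcnh3, a channel of the ether-a-go-go family, was at 7.66, 7.82 and 8.14 in the normal pools and at 8.11, 8.43 and 8.56 in the STZ pools. The groups overlap, since both had higher values at each later week. Among 129 solute carrier genes 9 were higher (6.98%, beside 3.95% of all genes tested) and 2 lower (1.55%, beside 4.69%). These counts turned to 1 higher and 14 lower on the deposited scale. Without the week 2 or the week 3 pool of either group 3 to 5 of the solute carrier genes were higher. The amino acid carriers Slc6a20a (0.41), Slc1a5 (0.44) and Slc38a2 (0.26), the sodium-calcium exchanger Slc8a1 (0.41) and the iron exporter Slc40a1 (0.31) were among the higher ones, and the mitochondrial Slc25a10 (-0.38) was the widest of the lower.

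Of 22 tested growth hormone, IGF and insulin genes 2 were higher and 2 lower, Igf1 among the latter. The share was 9.09% in each direction, beside 3.95% higher and 4.69% lower over all genes tested. Without Igf1 the counts were 2 higher and 1 lower of 21. Igfbp5, an IGF-binding protein of matrix-producing cells, was at 11.23, 10.71 and 11.08 in the normal pools and at 10.65, 10.65 and 10.58 in the STZ pools (-0.38, SE 0.109). Foxo3, a factor that insulin signalling keeps out of the nucleus, had 0.20 and the receptor Igf2r 0.17. Igf1r had 0.09 and Insr 0.12, and Ghr and Socs2 were below the filter. Glucocorticoid-responsive genes had 0 of 19 past an unadjusted p of 0.05 in limma, with Fkbp5 at 0.11 (SE 0.225), Sgk1 at 0.13 (SE 0.097) and Tsc22d3 at -0.06 (SE 0.080).

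Immune lists differed among themselves. C1qb, a chain of complement C1q, was at 8.62, 8.49 and 8.41 in the normal pools and at 7.83, 8.35 and 7.87 in the STZ pools (-0.49, SE 0.167), and Fcer1g had -0.29. They were the 2 of 17 macrophage genes that were lower (11.8%, beside 4.69% of all genes tested), while Csf1r had 0.00 and Aif1 -0.06. Interferon-stimulated genes had 1 of 19 lower (5.26%, near the share of all genes), Ifitm1 (-0.26), and a median of -0.13. Lymphocyte genes had 0 of 3 past an unadjusted p of 0.05 in limma, with Cd3g at 0.37 (SE 0.229), Lck at 0.13 and Cd4 at 0.01. Immediate early genes had Egr1 lower, at 8.65, 8.49 and 8.59 against 8.24, 8.22 and 8.01 (-0.42, SE 0.113), beside the higher Junb.

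Neutrophil transcripts depended on single pools. Defa5, a defensin gene, was at 6.80, 8.90 and 8.39 in the normal pools and at 6.79, 6.98 and 6.70 in the STZ pools. Np4 was at 7.87, 8.35 and 8.33 against 7.39, 7.57 and 6.70, and S100a9, a calcium-binding protein of neutrophils, at 9.93, 10.38 and 10.35 against 9.37, 10.13 and 9.23. The week 3 STZ pool was the lowest of all in each. The defensins Defa5, Np4 and RatNP-3b belong to a family of near-identical genes, so that their probe sets may share signal. Neutrophil and mast cell genes had 3 of 5 lower (beside 4.69% of all genes tested), Np4, S100a9 and the mast cell gene Tpsb2. That count was 0 when the week 3 STZ pool was left out and 1 without the week 2 normal pool. Tpsb2 had 0.03, -0.33 and -1.86 by week. S100a8, also on the list, had 0.04, 0.41 and -0.75 (fitted -0.10, SE 0.217). Np4 and Tpsb2 had STZ means of 7.22 and 7.19, below the filter of 7.36. The 13 list members on the array summed to 2261 to 2896 in the normal pools and 1585 to 2424 in the STZ pools.

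**Figure D4:**
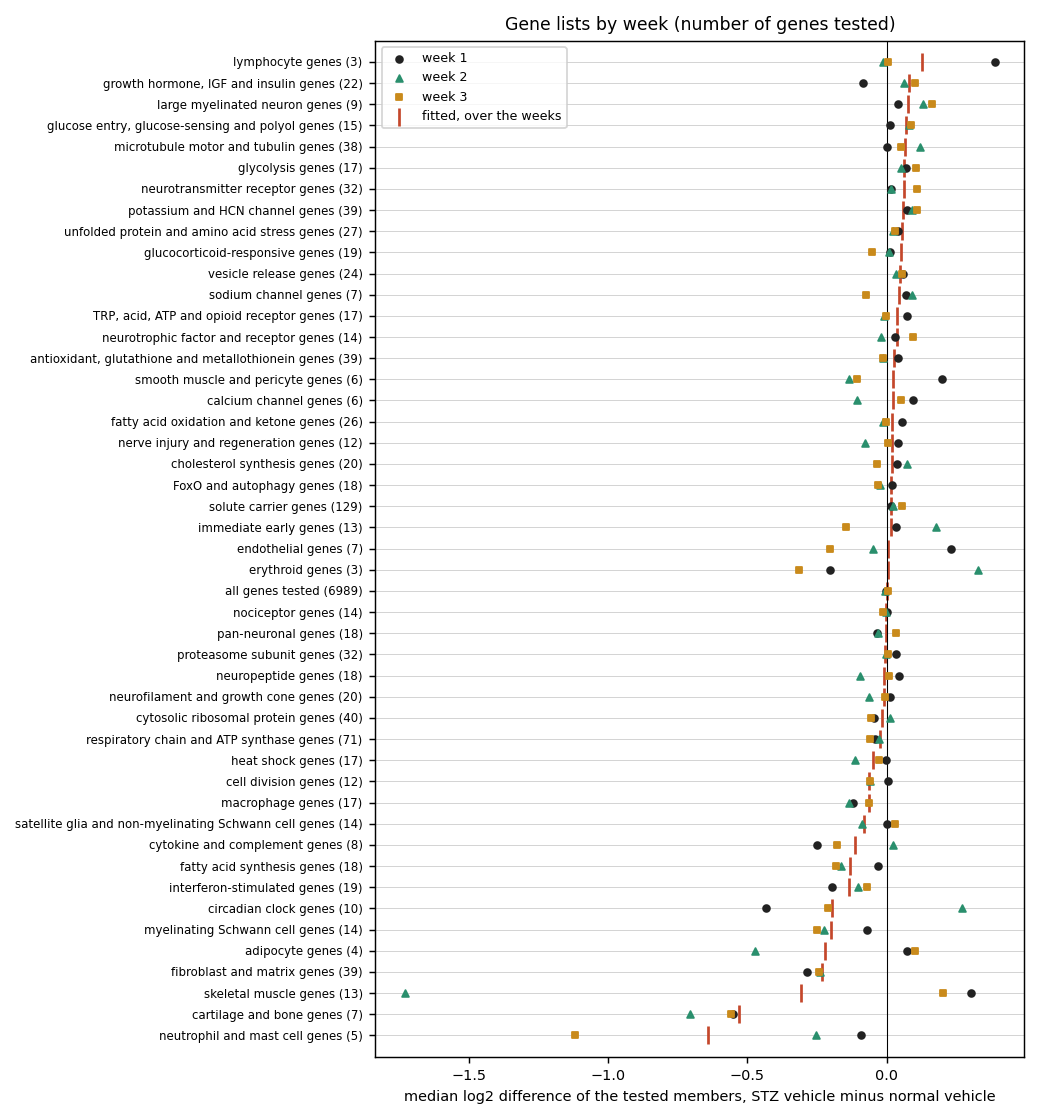
Median log2 difference, STZ vehicle minus normal vehicle, of the tested members of each gene list and of all 6989 genes, by week (symbols) and fitted over the weeks (red bars). Cartilage and bone, matrix and myelinating Schwann cell genes lie below 0 in every week, and skeletal muscle and clock genes on both sides. Neutrophil and mast cell, macrophage, fatty acid synthesis, interferon-stimulated, heat shock, and respiratory chain and ATP synthase genes also lie below 0 in every week. Lists near 0 lie about 0.1 lower on the deposited scale.

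Skeletal muscle genes, as a rule markers of tissue outside the ganglion, and some clock genes varied widely from pool to pool. The skeletal muscle actin gene Acta1 was at 9.14, 10.75 and 9.84 in the normal pools and at 9.44, 8.47 and 9.91 in the STZ pools. The week 2 normal pool was the highest and the week 2 STZ pool the lowest, so that the muscle list had medians of 0.30, -1.73 and 0.20 by week. The 25 muscle genes on the array summed to 4755 to 9060 in the normal pools and 4115 to 6472 in the STZ pools. None of 13 tested was past an unadjusted p of 0.05 in limma.

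Dbp, a transcription factor with a strong daily rhythm, was at 8.61, 6.98 and 9.27 in the normal pools and at 7.48, 7.62 and 6.15 in the STZ pools. Its difference was -1.13, 0.63 and -3.12 by week, the widest of any named gene in week 3. Nr1d1, a repressor driven by the same clock elements, was at 8.11, 7.07 and 7.97 against 7.43, 7.35 and 7.21, and so was also low in the week 2 normal pool. Bmal1, which Nr1d1 represses, was at 7.33, 7.41 and 6.98 against 7.98, 7.48 and 7.75, with every STZ pool above every normal pool (0.49, SE 0.162, adjusted p = 0.456). The normal mean of Bmal1 (7.24) lay below the filter on dim genes, as did the STZ means of Dbp (7.08) and Nr1d1 (7.33). Bmal1, Dbp and Nr1d1 thus entered the test through their other pools. Cry2 was lower in each STZ pool (-0.32, SE 0.103), and Per1 had 0.08 (SE 0.175). The labels do not state the time of day at which ganglia were taken.

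**Figure D5:**
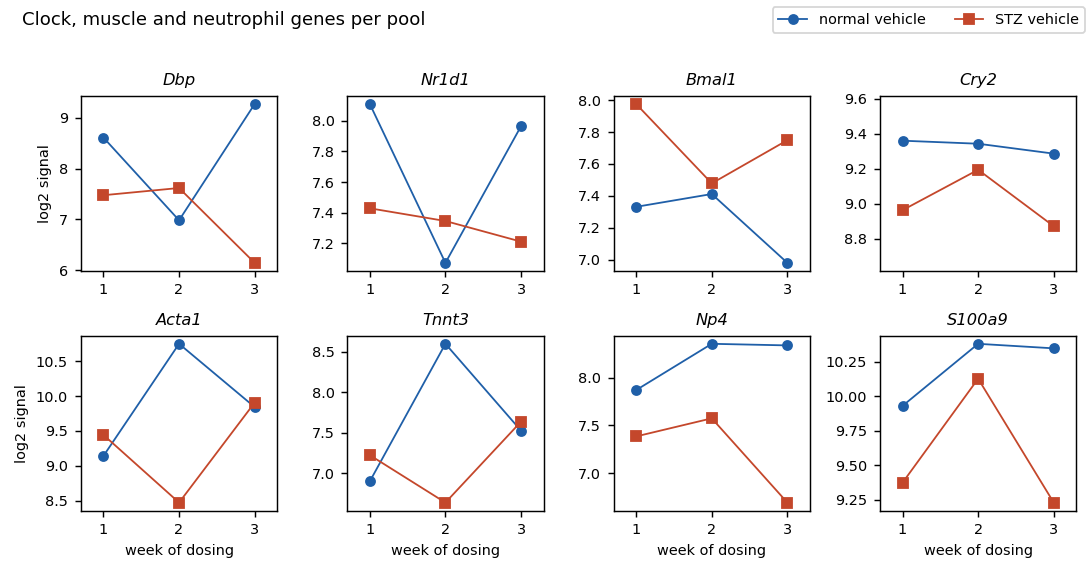
Log2 signal of clock genes (Dbp, Nr1d1, Bmal1, Cry2), muscle genes (Acta1, Tnnt3) and neutrophil genes (Np4, S100a9) in each vehicle pool against week of dosing, with normal vehicle as circles and STZ vehicle as squares; y axes differ between panels. Dbp crosses between groups in week 2, Acta1 has its highest value (10.75) in the week 2 normal pool, and Np4 its lowest (6.70) in the week 3 STZ pool.

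The difference between the groups was also fitted with a linear term over the weeks. In limma 0 of 6989 genes passed for that term, and 283 (4.05%) had an unadjusted p under 0.05. By the size of the moderated t, Slc13a4, a sulfate carrier, had a difference that went from -0.67 to -0.10 and 0.97 (slope 0.82 per week), and Cln8, a protein of the endoplasmic reticulum, went from -0.34 to 0.20 and 0.88. Tmem179b and Ints4 had slopes of 0.64 and 0.55. In the other direction Mief1, which recruits the mitochondrial fission machinery, had 0.56, 0.10 and -1.80. Cbfa2t2 had 1.78, 0.54 and -0.35, Srebf1 a slope of -0.58 and Klhl13 one of -0.52. Srebf1 was at 8.96, 9.27 and 9.96 in the normal pools and at 8.97, 8.91 and 8.82 in the STZ pools, so that most of its slope lies in the normal pools. The passing genes had slopes between -0.15 for Col2a1 and 0.00 for Txnip.

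The STZ pools dosed with FK1706 give a further set of diabetic ganglia, compared here with the same normal pools, so that the values below are not independent of those above. Txnip was at 11.42, 11.50 and 11.37 in those pools and Igf1 at 8.79, 8.56 and 8.25. Col1a1 was at 11.97, 11.32 and 11.15 and Col2a1 at 8.28, 8.14 and 7.73. Against normal vehicle that gave 0.59 for Txnip, -0.69 for Igf1, -0.59 for Col1a1 and -0.75 for Col2a1, beside 0.67, -0.79, -0.82 and -1.18 for STZ vehicle. In limma Txnip passed against normal vehicle in those pools (adjusted p = 0.0364). Igf1 and Col1a1 (adjusted p = 0.0833 for each) and Col2a1 (0.174) did not. Bmal1 was at 7.97, 7.85 and 7.89, Akr1b1 at 11.73, 11.57 and 11.84 and Me1 at 9.94, 9.76 and 9.83. Most genes chosen for wide STZ vehicle differences had values nearer to normal in those pools, such as Strn (0.30), Anp32a (0.16), Junb (0.06) and Slc6a13 (0.11). That choice alone favours smaller values in other pools. Some genes so chosen lay further from normal there: Fam98c (1.18, beside 1.04 for STZ vehicle), Spata19 (0.74 beside 0.52), Bmal1 (0.66 beside 0.49) and Ttc9b (-1.18 beside -0.71). None of these genes was tested for a difference between the diabetic groups here.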

How the data were processed

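Expression was measured on Affymetrix RAE230A arrays. The deposited values are linear intensities, 1 per probe set, which the authors made with MAS5 per the submitters' processing notes, with no version given. Of 15923 probe sets 57 are controls, and of the rest 12783 have 1 symbol, 312 several and 2771 none. An offset of 18.7 (the 10th percentile) was added, log2 values were quantile-normalized with controls included, and the brightest probe set stood for each of 10411 genes. The design had assumed scaled values, which these were not. Genes above the 40th percentile, 6989, were tested with limma 3.58.1 in R 4.3.3 (lmFit, eBayes with a trend) on group and week over 9 arrays, with 4 residual degrees of freedom. Week is a block because each group was sampled once in each week; same-week residuals of normal and STZ vehicle correlated with r of 0.127, 0.0353 and 0.157. A slope model had 2 residual degrees of freedom. All tests were two-sided, and the models were tested on simulated data. The number of arrays limits the precision. Named are genes that passed, 15 per direction by difference, up to 4 per list, 4 per direction by slope and role genes given whatever their value; members of lists outside this rule, and groups within lists, were chosen after their values were seen. The members and the 46 lists were chosen with earlier results of these data known.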

Additional observations from a re-analysis of the deposited data

How the results depend on the processing

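The count of 7 passing genes was 16 on the deposited scale (1010 genes at an unadjusted p under 0.05 in place of 604), 3 with the mean of all probe sets of a gene, 0 with no filter on dim genes and 0 with a prior without a trend. In these last limma fits 787 and 569 genes had an unadjusted p under 0.05. Without the replicate block, that is with week left out of the model, 1 gene passed, Txnip. Leaving out 1 pool gave 0 to 5 passing genes and 426 to 944 at an unadjusted p under 0.05, and leaving out 1 week gave 0 to 4 and 410 to 679. The other alternatives gave 6 or 7 passing genes: trimmed mean scaling, other offsets, a filter at the 60th percentile, the 6 vehicle arrays alone, and control probe sets left out of the quantile step, which was added after the data had been seen. Col1a2 did not pass with trimmed mean scaling or without controls, nor Timp1 with the 6 vehicle arrays alone. With the mean of all probe sets Col2a1, Igf1, Timp1 and Col1a2 did not pass. For the slope over the weeks 0 genes passed in limma in every alternative run, with 175 to 508 at an unadjusted p under 0.05. The cause of these changes was not tested. Precision is limited by 1 pool per group and week.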

Other observations

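Genes of general cell machinery and of vessels had few members past an unadjusted p of 0.05. Cytosolic ribosomal protein genes had 1 of 40 higher and 0 lower with unadjusted p under 0.05, Rpsa (0.19), and proteasome subunits 1 of 32 higher, Psmc5 (0.15). Motor and tubulin genes, which serve axonal transport, had 2 of 38 higher, among them the kinesin Kif3c (0.24), and 1 lower, the dynactin gene Dctn5 (-0.24). Smooth muscle and pericyte genes had 1 of 6 lower, Rgs5, at 8.39, 8.24 and 8.30 in the normal pools and at 8.21, 7.98 and 7.73 in the STZ pools (-0.34, SE 0.126), while Acta2 had 0.14 and Myl9 0.09, and the list median was 0.02. Endothelial genes had 1 of 7 higher, Egfl7 (0.33, SE 0.147), while Tie1 had -0.31 and Eng -0.28, and the list median was 0.00. Car3, which fat and slow muscle make, was at 7.31, 8.95 and 7.77 in the normal pools and at 7.74, 7.58 and 8.15 in the STZ pools, highest in the same week 2 normal pool as Acta1.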
